A study of Homo sapiens with 2 samples.

Results

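The genes described here are the very long protein-coding genes of HEK293 cells, those whose annotated span from start to end covers at least 500 kb. They were chosen from the annotation and from 1 measured value. A gene had to be protein-coding and autosomal, and had to hold at least 50 estimated reads summed over the 4 libraries. Genes of chromosomes 7 and 21, the genes SLC8A1, PTBP2 and CELF2, and genes with symbols starting with FAT, TENM, ADGRL, AFF, COL, RUNX or SYT were left out. The rule found 169 of the 57894 genes with transcripts in the files. Of 302 autosomal protein-coding genes of this span, 40 were left out by chromosome or name, and 27 of those 40 held 50 reads. Among the remaining 262 genes, 93 were under the read minimum and 36 of these had no read. The read sum is the only readout the rule used, and it adds up both groups. A gene that is high in 1 group can therefore pass through that group alone. NELL1, with 17 and 20 reads in the parental cells, and SPOCK3, with 7 and 13, passed through their reads in the knockout. So did others, among them LRRTM4 (18 and 28 parental reads), MDGA2 (24 and 11), PLCL1 (19 and 15) and FGF12 (25 and 10). The rises of such genes are partly shaped by the rule. The spans of the 169 genes had a median of 688.2 kb and reached 2298 kb.

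Total RNA was sequenced from HEK293 cells carrying a LARP7 knockout (clone 1-11) and from parental HEK293 cells, with 2 libraries per group. HEK293 is a line derived from human embryonic kidney. The knockout group is 1 clone, so other differences between this clone and the parental cells cannot be told apart from the knockout. The title and genotype labels of the knockout sample give the knockout, whereas its source label reads wildtype, and the genotype was used here. No source says whether the libraries within each group stem from separate cultures, and the p-values then cover only a spread that may be technical. The libraries held 16838501 and 16218587 estimated reads in the knockout, against 18483220 and 12851942 in the parental cells. LARP7 measured 36.1 and 31.9 CPM (counts per 1e6 reads, TMM-scaled) in the knockout, against 59.8 and 46.5 CPM in the parental cells, a log2 change of -0.65 (SE 0.16). LARP7 missed the threshold in edgeR (adjusted p = 0.135) and passed it in DESeq2 (adjusted p = 0.0421). The 7SK RNA, the partner of LARP7, measured 169.5 and 204.5 CPM in the knockout, against 5572 and 5481 CPM in the parental cells. It fell 29.6-fold (edgeR adjusted p = 1.13e-06). Of the 10 listed HEK293 markers that could be tested, NEFM fell and the other 9 did not pass. The marker list summed to 865 and 851 CPM in the knockout, against 808 and 770 CPM in the parental cells. VIM held most of this sum, at 520.9 and 507.8 CPM in the knockout. KRT8 and LHX1 were low in both groups, and SOX11 was near 0. Markers of other cell types summed to 22.6 and 22.8 CPM in the knockout and 21.02 and 20.4 CPM in the parental cells, with none of the 5 testable ones passing. SYP (mean 9.29 CPM in the knockout and 9.28 in the parental cells), COL1A1 (7.08 and 6.22) and MBP (3.78 and 2.96) made up most of that sum. PECAM1 and INS were at 0 in every library.

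LARP7 binds the 3′ end of the 7SK small nuclear RNA and keeps it stable. The 7SK ribonucleoprotein, together with HEXIM proteins, holds the kinase P-TEFb in an inactive state. Free P-TEFb phosphorylates RNA polymerase II and its pausing factors and so lets the polymerase enter productive elongation. A polymerase that transcribes a very long gene has to travel for hours through long introns, and such genes are known to depend on topoisomerases and on splicing factors that guard introns against early polyadenylation. Many very long human genes are known from neurons, where they encode adhesion molecules, guidance receptors and ion channels, and several lie at common fragile sites. In RNA of whole cultures, fewer cells that express a gene and less RNA per cell cannot be told apart.

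The sequences upstream of the start sites are shown for members on which the results turn, since P-TEFb acts on polymerases paused just downstream of the promoter. Of the 169 genes, 142 were found by symbol in the RefSeq promoter table (GRCh38.p14). NELL1 and SPOCK1, which also rose, had no entry there, so their sequences are not shown. Each line gives the 120 bases before 1 RefSeq start, 5′ to 3′ on the strand of the gene, chosen as the start with the most transcript abundance close to it. Capitals mark matches to the TATA box TATAAA, the GC box GGGCGG and the CCAAT box CCAAT on either strand, none of which overlap here.
EPHA6: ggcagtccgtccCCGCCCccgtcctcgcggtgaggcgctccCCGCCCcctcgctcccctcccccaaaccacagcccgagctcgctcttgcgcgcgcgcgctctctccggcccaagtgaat
SPOCK3: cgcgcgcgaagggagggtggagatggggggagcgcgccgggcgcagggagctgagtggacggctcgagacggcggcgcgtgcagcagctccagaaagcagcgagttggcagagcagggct
ALDH1A2: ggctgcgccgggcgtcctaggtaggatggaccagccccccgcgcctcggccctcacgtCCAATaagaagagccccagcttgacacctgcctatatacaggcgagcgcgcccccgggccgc
PCDH9: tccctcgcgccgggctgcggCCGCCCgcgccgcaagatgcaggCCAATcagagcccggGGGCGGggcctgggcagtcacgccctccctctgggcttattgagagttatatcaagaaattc
The EPHA6 sequence lies at chr3:96814474-96814593 (plus strand) and holds 2 GC boxes and 16 CpG dinucleotides. That of SPOCK3 lies at chr4:167234495-167234614 (minus strand), holds 15 CpG and shows none of these letters. The ALDH1A2 sequence at chr15:58065712-58065831 (minus strand) holds 1 CCAAT box and 12 CpG. PCDH9, at chr13:67230337-67230456 (minus strand), holds 2 GC boxes, 1 CCAAT box and 11 CpG. All 4 sequences are rich in G and C, with 66.7 to 75% of their bases, against a median of 59.2% over the 343 start windows of the very long genes and 60.0% over the 35116 windows of all genes. A GC box was present in 31.8% of the windows of very long genes and 34% of all windows. A CCAAT box was present in 19% of the windows of very long genes and 20.4% of all windows, and a TATA box in 4.37% of the windows of very long genes and 5.63% of all windows. A match of letters is a description and not a binding site, and starts of 1 gene can share bases.

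In the knockout, 5 of the 169 very long genes rose and none fell, by edgeR's quasi-likelihood test across all 18484 genes tested with Benjamini-Hochberg adjusted p under 0.05. Over all genes tested, 0.33% rose and 0.503% fell. At an unadjusted p under 0.05, 44 of the very long genes were higher and 10 lower in the knockout, where all genes gave 6.58% higher and 7.67% lower. DESeq2 called 11 higher and 1 lower (1.01% and 1.49% of all genes), and limma voom called 4 higher and 0 lower (0.314% and 0.498% of all genes). Leaving out a library could change both these counts and those of all genes, but the 2 did not move in step. Without knockout replicate 1, edgeR called 8 very long genes higher and 0 lower, where all genes gave 0.403% and 0.645%. Without parental replicate 1 it called 26 higher and 7 lower, where all genes gave 5.71% and 5.7%, and without parental replicate 2 it called 47 higher and 3 lower, where all genes gave 4.33% and 4.94%. The 5 genes that rose encode secreted matrix proteins (NELL1, SPOCK1, SPOCK3), a guidance receptor (EPHA6) and an enzyme of retinoic acid synthesis (ALDH1A2).

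NELL1, a secreted glycoprotein known for promoting bone formation, has an annotated span of 906.1 kb (chr11:20669551-21575681, GRCh38). It held 381 and 425 reads in the knockout, against 17 and 20 in the parental cells, or 22.2 and 25.1 CPM against 0.966 and 1.59 CPM. Both knockout libraries lay far above both parental ones, and the parental level rests on few reads. NELL1 rose by 4.24 on the log2 scale (SE 0.29, edgeR adjusted p = 0.00091), which is 18.9-fold. The annotation places a processed pseudogene, AC099730.1, on the same strand over its exons, with 22.0 reads in all 4 libraries, and the division of reads between them is uncertain.

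SPOCK1 and SPOCK3 encode testicans, secreted proteoglycans of the extracellular matrix. SPOCK1 (623.1 kb, chr5:136975298-137598379) measured 19.7 and 18.7 CPM in the knockout, against 3.41 and 5.88 CPM in the parental cells. It rose by 2.07 on the log2 scale (SE 0.28, edgeR adjusted p = 0.0152). SPOCK3 (501.4 kb, chr4:166733384-167234796) held 79 and 115 reads in the knockout, against 7 and 13 in the parental cells, and rose by 3.04 on the log2 scale (SE 0.52, edgeR adjusted p = 0.0416). The groups did not overlap for either gene. SPOCK3 is the member whose span lies closest to the minimum, and its call was lost with limma voom (adjusted p = 0.0590) and with an offset for transcript length in edgeR (adjusted p = 0.0783).

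EPHA6, an ephrin receptor tyrosine kinase of axon guidance, has an annotated span of 937.9 kb (chr3:96814581-97752460). It measured 10.3 and 10.8 CPM in the knockout, against 3.13 and 3.02 CPM in the parental cells, and rose by 1.77 on the log2 scale (SE 0.27, edgeR adjusted p = 0.0275). The 2 libraries of each group lay close together. With the length offset the change was 1.36 and edgeR's adjusted p 0.152, so the call was lost.

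ALDH1A2, the retinaldehyde dehydrogenase that makes retinoic acid in the embryo, has an annotated span of 544.4 kb (chr15:57953424-58497866). It measured 119 and 117 CPM in the knockout, against 51.8 and 52.2 CPM in the parental cells, and rose by 1.18 on the log2 scale (SE 0.12, edgeR adjusted p = 0.00454), or 2.27-fold. It is the most abundant of the 5 genes and the groups lay far apart relative to their spread. On the TPM scale, which divides by transcript length, ALDH1A2 measured 40.7 and 36.9 in the knockout and 14.16 and 11.95 in the parental cells. The transcript ALDH1A2-202, which spans 112.3 kb, took the largest share of this, 54.6 and 51.2% in the knockout and 43.8 and 48.4% in the parental cells. No TPM lay on a transcript of 500 kb or more, so the RNA counted as ALDH1A2 came from a stretch of the locus much shorter than its annotated span. Its exons overlap those of AQP9 on the opposite strand, which had 0 reads, and of an antisense gene with 31.9 reads, and whether counting used the strand is not given in the sources used here.

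**Figure D1:**
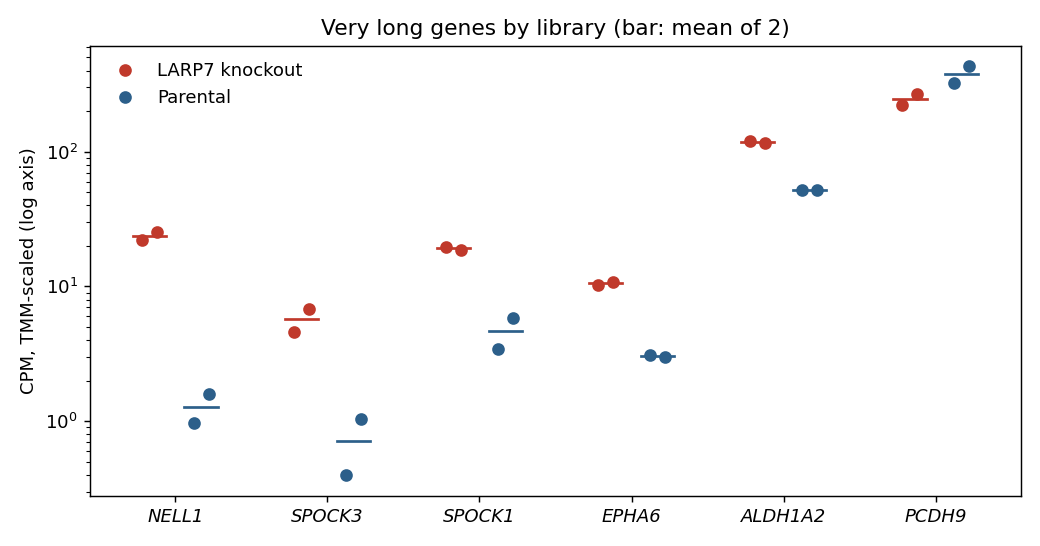
Level of named very long genes in each library, in CPM on a log axis, with knockout libraries drawn left of parental libraries and 1 point per library. NELL1, SPOCK1, SPOCK3, EPHA6 and ALDH1A2 show both knockout points above both parental points, and PCDH9 shows both knockout points below them.

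Several members that missed the threshold had groups that did not overlap. KALRN, a guanine nucleotide exchange factor of dendritic spines, measured 19.0 and 23.7 CPM in the knockout, against 10.3 and 9.37 CPM in the parental cells (log2 change 1.11, SE 0.21, edgeR adjusted p = 0.053). PPFIA2, the presynaptic scaffold liprin-alpha-2, measured 7.65 and 10.3 CPM in the knockout, against 3.35 and 2.46 CPM in the parental cells (log2 change 1.61, edgeR adjusted p = 0.0667). ADGRV1, the large adhesion receptor mutated in Usher syndrome, measured 94.6 and 111.7 CPM in the knockout, against 61.3 and 67.9 CPM in the parental cells (log2 change 0.68, edgeR adjusted p = 0.0698). These values are all higher in the knockout, and DESeq2 called all 3 genes, together with PTPRD, ATRNL1 and LRRTM4. PTPRD, a receptor tyrosine phosphatase that organises synapses, has the largest span of all members, 2298 kb, and measured 24.98 and 27.39 CPM in the knockout, against 11.8 and 15.9 CPM in the parental cells (log2 change 0.93, edgeR adjusted p = 0.0881). ATRNL1, an attractin-like membrane protein, measured 19.0 and 20.9 CPM in the knockout, against 9.60 and 11.7 CPM in the parental cells (edgeR adjusted p = 0.0928). LRRTM4, a synaptic leucine-rich repeat protein, measured 4.26 and 8.34 CPM in the knockout and 1.02 and 2.22 CPM in the parental cells, so its libraries differed widely within each group.

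The member that DESeq2 called lower was PCDH9, a protocadherin of neural cell adhesion (chr13:66302834-67230445). It measured 220.7 and 267.0 CPM in the knockout, against 321.6 and 429.2 CPM in the parental cells. Both knockout libraries were below both parental ones, and the log2 change was -0.62 (SE 0.16), with an adjusted p of 0.144 in edgeR and 0.0133 in DESeq2. On the TPM scale the groups overlapped, with 11.7 and 11.0 in the knockout and 12.3 and 9.86 in the parental cells. The 2-exon transcript PCDH9-201 is 28227 bases long and spans 29.4 kb, and it took 48.0 and 65.5% of the TPM of the gene in the knockout, against 57.8 and 84.9% in the parental cells. The transcript PCDH9-203, which spans 926.5 kb, took 37.5 and 20.8% in the knockout, against 7.41 and 3.85% in the parental cells. PCDH9 did not pass the test of transcript usage given below (edgeR, gene-level Simes, adjusted p = 0.538). Transcripts starting within 500 bases of the start printed above held 61.0 and 79.2% of its TPM in the knockout, against 92.6 and 95.3% in the parental cells. The printed sequence therefore does not stand for all of its transcripts. With the length offset the log2 change was -0.38.

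Other members with lower values in the knockout did not pass edgeR's test. TRAPPC9, a subunit of a membrane tethering complex, averaged 11.2 ± 0.191 CPM in the knockout and 19.98 ± 3.51 CPM in the parental cells (SD, n = 2 each), a log2 change of -0.84. CACNA2D3, an auxiliary calcium channel subunit, measured 2.45 and 2.25 CPM in the knockout, against 4.15 and 4.29 CPM in the parental cells. FHIT, a diadenosine triphosphate hydrolase at the fragile site FRA3B, measured 5.84 and 7.69 CPM in the knockout, against 8.92 and 12.5 CPM in the parental cells. These 3 genes have groups that do not overlap. RIMS2 of the presynaptic active zone had the lowest log2 change among the members, -1.31, at 0.467 and 0.828 CPM in the knockout and 0.966 and 2.30 CPM in the parental cells. NAALADL2 (-0.81), KCNIP4 (-0.54), which binds potassium channels, and DOCK3 (-0.53), a Rac activator, also had groups that did not overlap.

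Across the 169 genes the log2 change had a median of 0.21, with quartiles of -0.07 and 0.53, and 119 genes were above 0. Without 1 library the median was 0.34 (parental replicate 2 left out), 0.10 (parental replicate 1), 0.14 (knockout replicate 2) or 0.27 (knockout replicate 1). The median over all genes tested was 0.002, and 50.3% of them were above 0. Both knockout libraries lay above both parental libraries for 71 of the very long genes, or 42.0%, and below them for 23, or 13.6%, while 75 had overlapping groups. Over all genes tested these shares were 23.5% and 22.7%. In genes of 200 to 500 kb they were 42.4% and 12.6%, so the very long genes did not stand apart from the next shorter class. A log2 change over 1 was seen in 16 members and one under -1 in 1 member. The share over all genes was not computed for these counts. Several of the 16 genes hold few reads and passed the read minimum through the knockout alone. The counts are therefore not read as a trait of very long genes. Read as a share of all reads on protein-coding genes, the very long genes made up 0.638 and 0.701% in the knockout, against 0.542 and 0.641% in the parental cells. The lower knockout library lay between the parental libraries, and the shares, 0.670 ± 0.0446% and 0.591 ± 0.0700% (SD, n = 2 each), gave p = 0.667 in a two-sided exact permutation test, where 1 in 3 is the smallest p that 2 against 2 libraries allow.

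From 50 kb upward, the median change was larger in each longer class of genes of the same chromosomes and read minimum. It was -0.005 for 4045 genes under 20 kb and -0.006 for 3156 genes of 20 to 50 kb. It reached 0.04 for 2142 genes of 50 to 100 kb, 0.09 for 1470 genes of 100 to 200 kb and 0.15 for 785 genes of 200 to 500 kb. The share of genes above 0 was 49.3% under 20 kb, 69.6% at 200 to 500 kb and 70.4% at 500 kb and over. Genes of 200 to 500 kb counted 16 that rose and 5 that fell. Over the 68 genes of 750 kb and over, the median was 0.11. With the length offset, the medians were 0.14 at 200 to 500 kb and 0.12 at 500 kb and over. Within the very long genes themselves, the change did not follow the span, with a Spearman correlation of -0.09 over 169 genes that share the same 4 libraries. Over 11767 autosomal protein-coding genes the correlation with annotated span was 0.133. Over these same genes it was 0.163 with mRNA length and 0.150 with the TPM-weighted span of the transcripts. All of these are descriptions across genes, which are not independent replicates.

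**Figure D2:**
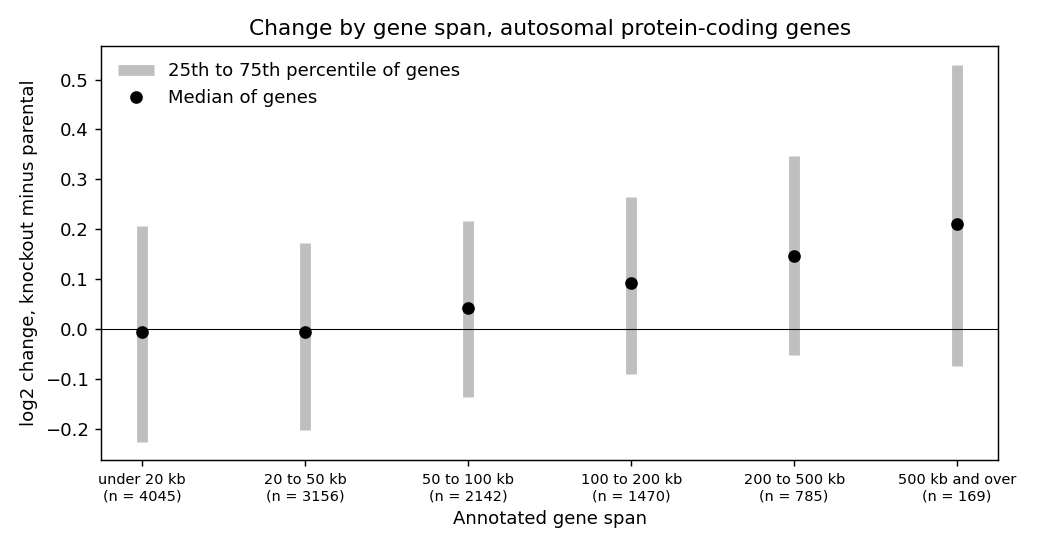
Median log2 change (knockout minus parental) of autosomal protein-coding genes in 6 classes of annotated span, with grey bars from the 25th to the 75th percentile of genes. The median is -0.005 in genes under 20 kb and 0.21 in the 169 genes of 500 kb and over, where the bar reaches from -0.07 to 0.53.

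The libraries of a group also differed from each other along gene span. For the very long genes, the median difference was -0.11 on the log2 scale for knockout replicate 1 minus knockout replicate 2, and 0.20 for parental replicate 2 minus parental replicate 1. For genes under 20 kb these differences were 0.03 and -0.12. The spread between the parental libraries in very long genes was therefore about as large as the median change between the groups. Set pair by pair, the median of the very long genes was 0.31 for knockout replicate 1 and 0.36 for knockout replicate 2 over parental replicate 1. Over parental replicate 2 it was 0.06 for knockout replicate 1 and 0.15 for knockout replicate 2. All 4 pairs lay above 0, and their size turned on the parental library used. The mean fragment length, read from the effective lengths, was 232.9 and 225.8 bases in the knockout and 217.0 and 206.7 bases in the parental cells, and its part in the result was not tested.

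**Figure D3:**
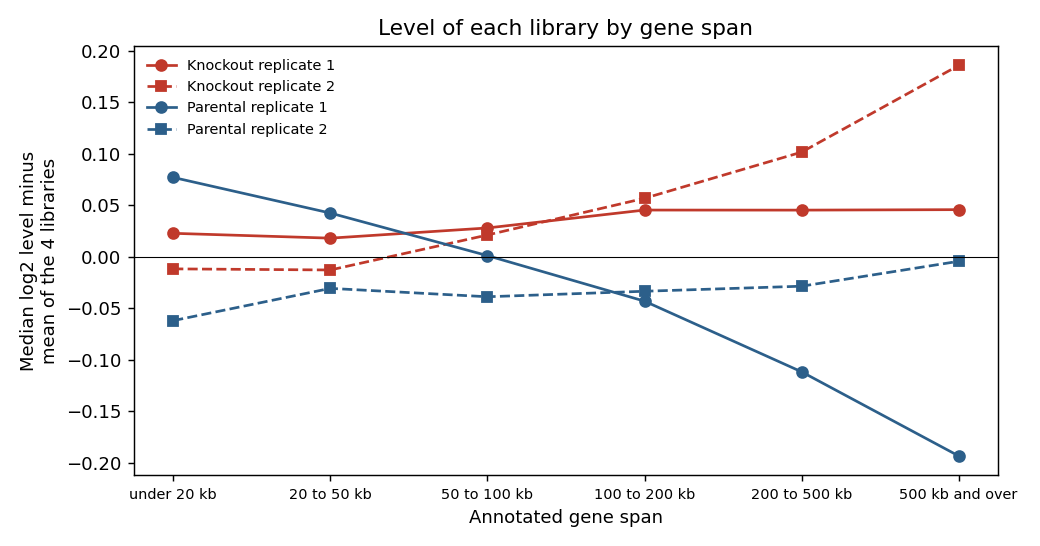
Median deviation of each library from the mean of the 4 libraries (log2) by class of gene span, with 1 line per library. In the genes of 500 kb and over, knockout replicates 1 and 2 lie at 0.05 and 0.19, and parental replicates 1 and 2 at -0.19 and -0.004.

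A long annotated span does not mean that the RNA counted spans it. Weighted by TPM, the expressed transcripts of the 169 genes spanned a median of 301.5 kb. For 53 genes more than 50% of the TPM lay on transcripts of 500 kb and over, and for 29 genes none did. Beside ALDH1A2, which had none, the genes that rose held 48.6% (NELL1), 50.6% (SPOCK3), 12.1% (SPOCK1) and 10.8% (EPHA6) on such transcripts. PTPRD held 0.613% and LRRTM4 4.9%. Transcripts of 500 kb and over held 32.1 and 31.4% of the summed TPM of the very long genes in the knockout, against 32.6 and 31.9% in the parental cells, so this share was nearly equal in all 4 libraries. The 31 genes with an expressed span of at least 500 kb had a median log2 change of 0.20, with 19 above 0. The 95 genes of 200 to 500 kb had a median of 0.16, and the 43 genes under 200 kb had the highest, 0.31, with 34 above 0. The assignment of few reads to transcripts is uncertain, and these classes were not tested against each other. The mRNA length also differed with span, with a median of 1745 bases in genes under 20 kb and 3128 bases in the very long genes, and its part in the result was not tested. Among genes with mRNAs under 3 kb, the median was 0.23 for 82 very long genes and -0.03 for 5564 genes under 50 kb. With the length offset these medians were 0.14 and -0.02. For mRNAs of 3 to 5 kb it was 0.19 for 51 very long genes and 0.06 for 1284 genes under 50 kb, and 0.16 and 0.03 with the offset. Among those with mRNAs of 5 kb and over, it was 0.19 for 36 very long genes and 0.03 for 353 genes under 50 kb, and 0.06 and 0.01 with the length offset.

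Grouped by role, the adhesion and guidance genes held the highest medians. The 13 genes of synaptic adhesion and the neural cell surface had a median log2 change of 0.30, with 10 above 0 and none passing the test. Among them, NRXN3, a presynaptic neurexin, averaged 59.4 ± 1.28 CPM in the knockout and 40.6 ± 1.22 CPM in the parental cells (SD, n = 2 each), a log2 change of 0.55 (edgeR adjusted p = 0.115). PTPRK, a receptor phosphatase of cell contacts, measured 91.8 and 84.5 CPM in the knockout, against 60.2 and 69.1 CPM in the parental cells. The 7 axon guidance genes had a median of 0.77, with EPHA6 the member that rose and 5 above 0. SEMA6D, a semaphorin, measured 19.6 and 21.8 CPM in the knockout, against 11.8 and 12.5 CPM in the parental cells (log2 change 0.77). EPHB1, another ephrin receptor, had a log2 change of 0.94. ROBO1, the receptor of the Slit repellents, measured 223.6 and 221.0 CPM in the knockout, against 271.3 and 264.4 CPM in the parental cells (log2 change -0.27). The summed level of the guidance genes was lower in the knockout, at 299.1 and 299.9 CPM against 327.8 and 329.4 CPM in the parental cells, and ROBO1 carried most of it.

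The 4 cadherin and cell polarity genes had a median of 0.26 with none passing. Beside PCDH9 they hold PARD3 (0.24) and PARD3B (0.68), polarity proteins of cell junctions, and CDH4 (0.29), a classical cadherin near 1.7 CPM. The 13 ion channel and receptor genes had a median of 0.22, with 9 above 0 and none passing. SLC4A4, a sodium bicarbonate cotransporter of the kidney, measured 15.8 and 17.5 CPM in the knockout, against 9.03 and 12.9 CPM in the parental cells. FGF12, which modulates sodium channels, had a log2 change of 1.24 and RYR3, a ryanodine receptor, one of 0.65, both at levels under 4 CPM. In the matrix and glycosylation group, 3 of 13 genes rose, the secreted proteins NELL1, SPOCK1 and SPOCK3, and 10 did not pass. Over all genes tested, 0.33% rose. NELL1 and SPOCK3 passed the read minimum only through the knockout, where they are high, so this count is not read as a result about matrix genes. The median of this group was 0.12, the lowest of the role groups, with 11 above 0. THSD4, a matrix protein of microfibrils, measured 7.76 and 9.05 CPM in the knockout and 4.49 and 8.26 CPM in the parental cells, with overlapping groups.

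The 19 kinase, phosphodiesterase and signalling genes had a median of 0.23, with 13 above 0 and none passing. PLCB1, a phospholipase C, measured 50.3 and 58.8 CPM in the knockout, against 34.9 and 39.2 CPM in the parental cells (log2 change 0.56). PDE4D, a phosphodiesterase of cyclic AMP, had a log2 change of 0.51 and PLCL1, a phospholipase C-like protein, one of 1.596. The largest group, 31 scaffold, cytoskeleton and membrane traffic genes, had a median of 0.19, with 20 above 0 and none passing. EXOC6B of the exocyst measured 85.8 and 92.7 CPM in the knockout, against 66.9 and 58.8 CPM in the parental cells (log2 change 0.50). STXBP5L, a regulator of vesicle fusion, measured 67.4 and 66.8 CPM in the knockout, against 49.5 and 47.6 CPM in the parental cells (log2 change 0.47). The 15 transcription factor and RNA-binding genes had a median of 0.20, with none passing. NFIA, a nuclear factor I of glial and kidney development, measured 139.7 and 136.8 CPM in the knockout, against 112.8 and 89.8 CPM in the parental cells, and MECOM, a zinc finger factor, had a log2 change of 0.41. ESRRG, an orphan nuclear receptor, had one of 0.76 and RORA one of 0.27. The 51 genes in no role group had a median of 0.18, with ALDH1A2 rising. In this last set MDGA2, which binds neuroligins, measured 3.502 and 4.082 CPM in the knockout, against 1.36 and 0.873 CPM in the parental cells (log2 change 1.73).

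Genes at common fragile sites form a group that cuts across the others, since 13 of its 16 members are also in another role group. Its median log2 change was 0.17, with 12 above 0 and none passing. CCSER1 had a log2 change of 0.50 and NBEA, a protein of vesicle traffic, one of 0.35. FHIT (-0.66) and NAALADL2 (-0.81) had values of the other sign, and DLG2, a synaptic scaffold, had a log2 change of 0.91 at under 2 CPM.

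**Figure D4:**
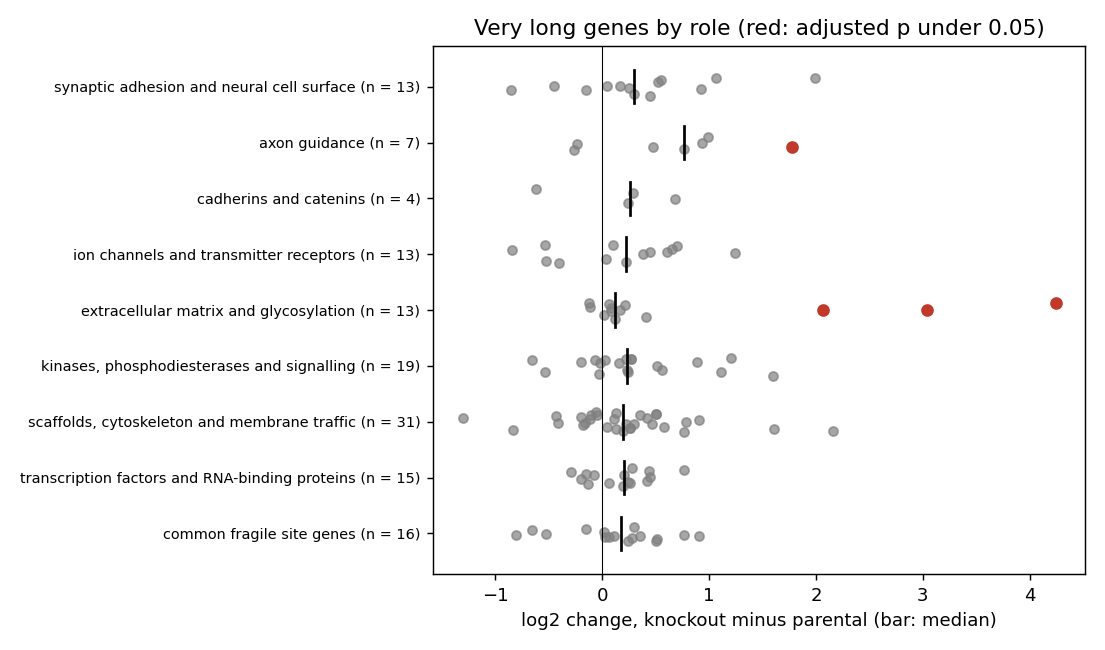
Log2 change (knockout minus parental) of the very long genes in role groups, with a mark at the median of each group. A gene is 1 point in every group it belongs to, and the 51 genes in no role group are not drawn. The medians lie between 0.12 (extracellular matrix and glycosylation) and 0.77 (axon guidance), and all of the groups hold genes on both sides of 0.

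The level of the very long genes was modest. Their mean TPM over the 4 libraries had a median of 4.01 and reached 81.0, in DNAH14, the gene of an axonemal dynein heavy chain. Weighted by TPM, the transcripts of DNAH14 spanned 38.9 kb and were 1305 bases long. Only 0.885% of its TPM lay on transcripts of 500 kb and over. DNAH14 averaged 96.5 TPM in the knockout and 65.4 TPM in the parental cells, or 133 ± 5.06 CPM and 99.6 ± 0.441 CPM (SD, n = 2 each), and its log2 change of 0.42 did not pass. By reads, LRBA, a protein of vesicle traffic, averaged 312.5 ± 29.9 CPM in the knockout and 260.6 ± 14.6 CPM in the parental cells (SD, n = 2 each). UTRN, the homologue of dystrophin, measured 275.3 and 307.7 CPM in the knockout, against 220.5 and 253.0 CPM in the parental cells (log2 change 0.30). RABGAP1L (0.22), which acts on Rab GTPases, and VPS13B (-0.20), a lipid transfer protein of the Golgi, were also among the 8 with the highest level. None of these passed the test. The genes with the largest spans after PTPRD were DLG2 (2173 kb), MACROD2 (2058 kb) and EYS (1987 kb). MACROD2, a hydrolase of ADP-ribose, measured 1.63 and 2.43 CPM in the knockout and 2.16 and 1.59 CPM in the parental cells. EYS, a photoreceptor matrix protein, measured 24.5 and 20.5 CPM in the knockout and 20.5 and 19.5 CPM in the parental cells. Some of its exons overlap PHF3 on the opposite strand, a gene with 20033 reads. Without a known strand setting, reads of EYS and PHF3 in the shared stretch cannot be told apart.

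On the edges of the rule, 4 genes just under the span minimum were DST (496.6 kb), ITPR2 (496.7 kb), RPS6KA2 (497.1 kb) and DIAPH3 (498.4 kb), and those just above were SPOCK3 (501.4 kb), KCNAB1 (501.4 kb), PPFIA2 (501.6 kb) and DNAH14 (503.0 kb). DST, a cytoskeletal linker, held 6477 and 6477 reads in the knockout, against 4770 and 3727 in the parental cells. By reads, MAPK10 (50.1), DLGAP1 (51), SORCS1 (53) and LSAMP (56) lay just inside the minimum. Genes just outside it included ADAMTSL1 (41), GRIK2 (43) and KIRREL3 (45). GRIK2, a kainate receptor subunit, held 18 and 23 reads in the knockout, against 1 and 1 in the parental cells. DLGAP1, a postsynaptic scaffold, held 18 and 25 reads in the knockout, against 2 and 6 in the parental cells. The 93 genes under the minimum summed to 13.8 and 16.3 CPM in the knockout, against 10.0 and 11.4 CPM in the parental cells.

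By chromosome, the very long genes of chromosome 3 stood lower than those of most others. Their median log2 change was -0.11 over 27 genes, with 11 above 0, and the 739 other protein-coding genes of chromosome 3 also had a median of -0.11. On chromosome 8 the 7 very long genes had a median of -0.20 and the 460 other genes -0.13. All 10 very long genes of chromosome 12 were above 0 (median 0.35, other genes 0.04), as were all 6 of chromosome 15 (median 0.53, other genes 0.07). Set against the other genes of its own chromosome, 115 of the 169 very long genes were above the median, and the median difference was 0.165. Without chromosome 3 the median of the very long genes was 0.22.

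**Figure D5:**
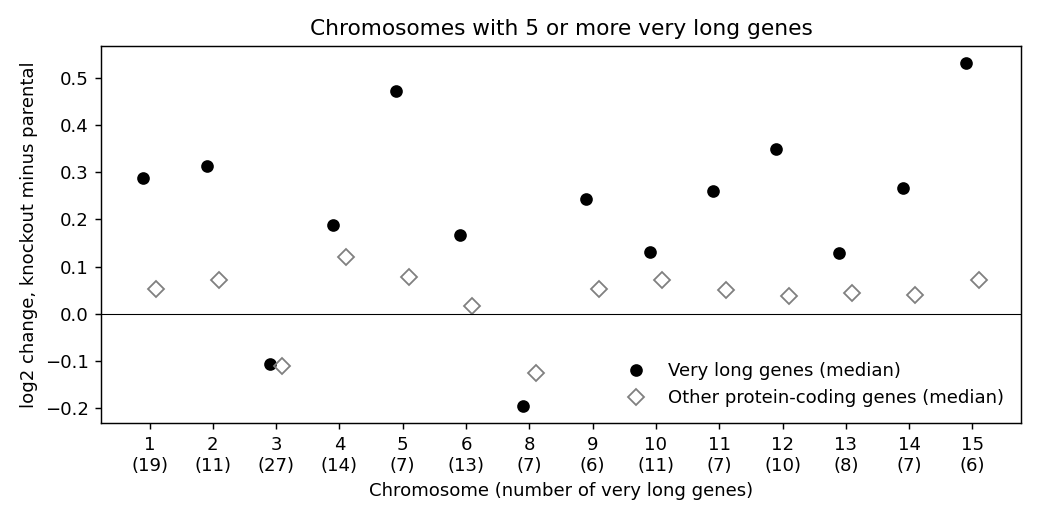
Median log2 change (knockout minus parental) of the very long genes (filled circles) and of the other protein-coding genes (open diamonds) for chromosomes with 5 or more very long genes, whose number stands under each. Chromosomes 3 and 8 have both medians below 0, and chromosome 15 has the highest median of very long genes, 0.53.

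Transcript usage, the share of each transcript in the reads of its gene, could be tested for 129 of the very long genes, and none passed (edgeR, gene-level Simes p, Benjamini-Hochberg adjusted), where 0.686% of all 9475 genes tested did. At an unadjusted p under 0.05 there were 8, or 6.20%, against 4.61% of all genes. The smallest p belonged to KALRN (0.0123, adjusted 0.437 by edgeR), EPHB1 and PCDH9. Among 42 genes of transcription elongation and long-gene processing that are not very long themselves, none passed the expression test, and their median log2 change was -0.01, with 20 above 0. TOP2A, a topoisomerase, had a log2 change of 0.41 (edgeR adjusted p = 0.150), HEXIM1 one of 0.75 and SNRPA, a U1 protein, one of -0.44. SCAF4 (-0.46) and CDK9 (-0.42), the kinase of P-TEFb, were also lower, with groups that did not overlap. TOP1 (-0.04), TOP2B (-0.12) and SFPQ (0.09) were near 0.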

How the data were processed

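Total RNA of HEK293 cells was sequenced in 2 LARP7 knockout and 2 parental libraries, made with the Ovation SoLo kit per the labels' protocols. The deposited tables give, per the file headers, estimated counts, TPM and effective length for each transcript. The submitters' processing notes name hg38, edgeR 3.24.3, Salmon 1.6, STAR 2.5.3a, R 3.5.1 and 3.3.3, Picard, cutadapt 1.6 and SAMtools 1.3.1. Which annotation release was used is not given in the sources used here, nor is the strand setting. The estimated counts the authors deposited are not whole, since Salmon divides reads among similar transcripts, an error the tests do not see. The deposited TPM values were summed per gene to give levels per length, and the deposited effective length served for the length offset and for the fragment length.

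Transcripts were joined to GENCODE v29 (GRCh38), where 197318 of 198002 matched. The 684 others took 0.0631 to 0.0711% of reads. Per gene, the estimated counts were added up and rounded, and the test was the quasi-likelihood F test of edgeR 4.0.16 in R 4.3.3, after filterByExpr and TMM scaling, for knockout minus parental, adjusted over all genes. DESeq2 1.42.0 and limma 3.58.1 (voom), other size factors, other filters, a transcript length offset, a replicate block and leaving out each library served as alternatives. Transcript usage was tested with edgeR over transcripts with at least 10 reads and 5% of their gene in 2 libraries. The scripts were tested on simulated data. The members and the lists were chosen with earlier results of these data known, so that no list was tested and no p was adjusted over a list.

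Members named are those past the threshold, the 8 with the largest rise and the 8 with the largest fall whose groups do not overlap and whose average log2 CPM is at least 0, the 8 with the highest level, the 4 with the largest span, those at the edges of the rule and up to 4 per role list. ADGRV1 and ATRNL1 were named after their values were seen, because DESeq2 called them, and so were the transcripts given. RIMS2 and others at few reads carry wide errors. Role lists covered synaptic adhesion, axon guidance, cadherins, ion channels, matrix, signalling, scaffolds, transcription factors, fragile site genes, elongation factors and cell type markers. The libraries of a group differed beyond sampling noise (chi-square per degree of freedom 8.74 in the knockout and 30.7 in the parental cells), so no pair of libraries was merged, which does not show that they came from separate cultures. The 7SK RNA has a pair of entries at its locus, and the one holding the reads was used. A gene at the edge of the read minimum is not reported here.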

Additional observations from a re-analysis of the deposited data

How the results depend on the processing

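Against 5 very long genes that rose, DESeq2 called 11, no filter on low counts 19, the transcript length offset 3, and a span minimum of 750 kb left 2. Against 0 that fell, DESeq2 called 1 and no filter 2. Leaving out 1 library gave 5 to 47 that rose and 0 to 7 that fell. The upper ends came without parental replicate 2 (47 rose and 3 fell) and without parental replicate 1 (26 rose and 7 fell). Without knockout replicate 1, 8 rose and 0 fell, and without knockout replicate 2, 5 rose and 0 fell. Over all genes tested, 154 passed, against 463 with DESeq2, 831 with no filter, 91 with the length offset, 2265 without parental replicate 1 and 1825 without parental replicate 2. With the replicate number as a block, 37 rose and 5 fell (1656 over all genes). The numbers pair nothing in the labels, and the correlation of deviations between same-numbered libraries was 0.276. The 5 genes that rose were called under every alternative run except the length offset, which lost EPHA6 and SPOCK3, and limma voom, which lost SPOCK3. The median log2 change of 0.21 was 0.10 to 0.34 on leaving out a library, with 0.34 without parental replicate 2, 0.12 with the length offset and 0.11 over the 68 genes of at least 750 kb. With library sizes alone it was 0.30, where the median of all genes was 0.095. The difference in the share of protein-coding reads, 0.0787 percentage points, was 0.0292 to 0.128 on leaving out a library, 0.0118 with a span minimum of 750 kb, 0.318 with one of 300 kb, 0.0583 on the TPM scale and 0.0923 without the most abundant member. Transcript usage gave 0 to 1 genes, the 1 being PRKD1 without parental replicate 1. The sign turned for MACROD2 (-0.056 with the length offset, and -0.20 to 0.37 on leaving out a library), THSD4 (-0.16 with the offset), SORCS1 (-0.23 to 0.62 on leaving out a library), LSAMP (0.060 with limma voom, and -0.74 to 0.73 on leaving out a library) and MAPK10 (0.060 with library sizes alone, and -0.54 to 0.35 on leaving out a library). The cause was not tested. Of 780 values of 56 named genes, 676 kept their direction and side of the threshold, 90 passed it anew and 3 lost it. The depth limits genes near the read minimum, where a few reads decide the change.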
